A study of Mus musculus with 6 samples.

Results

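Caveolae are small, flask-shaped pits of the plasma membrane, and the genes that build them were compared between *Phf2* KO and control C2C12 cells. The set held 9 genes, chosen by symbol from the 55401 genes of the count matrix: the caveolins *Cav1*, *Cav2* and *Cav3*, the cavins *Cavin1*, *Cavin2*, *Cavin3* and *Cavin4*, and the neck and membrane-bending proteins *Ehd2* and *Pacsin3*. Each symbol stood on 1 row, and all 9 genes were among the 17310 that passed the filter on low counts. C2C12 cells are mouse myoblasts that form myotubes when serum is lowered, and all libraries were made from polyadenylated RNA of myotube cultures at 2 d post differentiation, grown in DMEM with 2% horse serum. The *Phf2* KO cells (3 libraries) were a sorted, uncloned pool that had received Cas9, ZsGreen1 and 4 guide RNAs against *Phf2*, the gene of a histone demethylase. The control cells (3 libraries, labelled wild type) were a mock pool, sorted in the same way, with a plasmid that also carries Cas9 and ZsGreen1. Its guide has no match in the mouse genome, so DNA breaks are expected only in the *Phf2* KO pool. The study states that it does not exclude an effect of such breaks on transcription. By the study's methods n counts wells of 1 experiment, with no second sort described, so the p-values measure the spread between wells. The effect of *Phf2* and a difference between the sorted pools cannot be told apart.

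Caveolins are inserted in the membrane and assemble into the caveolar coat, and cavins are cytosolic proteins that bind this coat and stabilise the curved membrane. *Cav1*, *Cav2*, *Cavin1*, *Cavin2*, *Cavin3* and *Ehd2* are expressed in many tissues and are called general here, while *Cav3*, *Cavin4* and *Pacsin3* are enriched in striated muscle. In muscle, *Cav3* takes the place that *Cav1* holds in other cells, and mutations of *CAV3* and *CAVIN1* cause muscle disease. Caveolae of muscle buffer membrane tension and take part in the formation of T-tubules.

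In *Phf2* KO cells, *Cav3* fell to 38.2% of its control level, *Cavin4* to 75.7% and *Cavin2* to 74.6%, while *Cav1* rose to 130.0% and *Cavin3* to 114.9%. The muscle caveolin and the muscle cavin thus fell while the main general caveolin rose, and the general *Cavin2* fell as well. *Cav2*, *Cavin1*, *Ehd2* and *Pacsin3* did not pass the threshold. In all, 5 of the 9 genes (2 higher and 3 lower) had an adjusted p under 0.05 in edgeR's quasi-likelihood test, against 6.48% of all genes tested (3.22% higher and 3.26% lower). The groups of 3 libraries did not overlap for 7 of the 9 genes (4 higher and 3 lower), against 25.1% of all genes. Because the 9 genes were chosen with earlier results of these data known, both contrasts are descriptions and not independent support. The median log2 fold change was 0.03 over the 9 genes and -0.001 over all genes tested. Every one of the 9 genes had the same direction in all 20 fits, which differed in test, scaling, filter, measure or libraries.

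**Figure D1:**
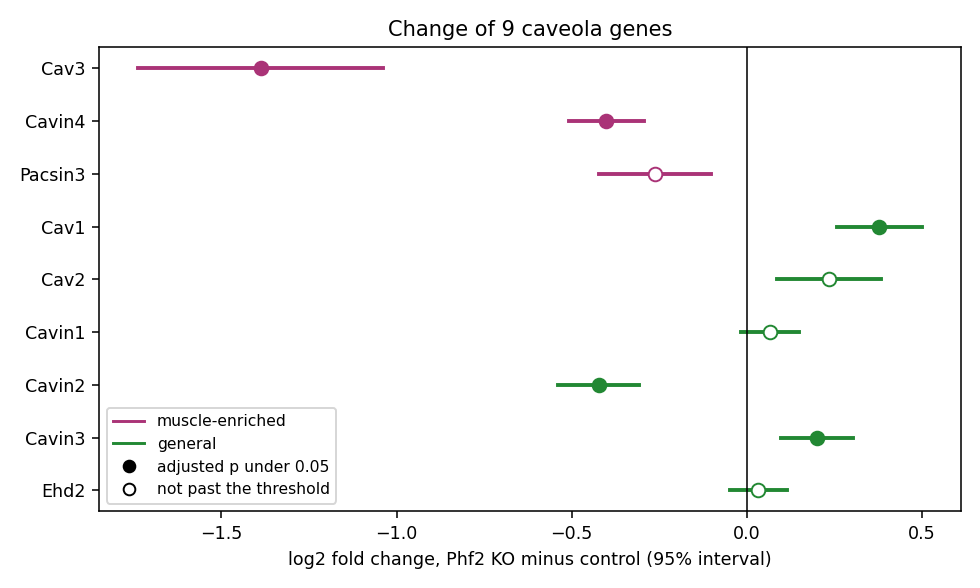
Log2 fold change (*Phf2* KO minus control) of the 9 genes on the x axis, with the 95% interval of the quasi-likelihood fit as a line. Filled points have an adjusted p under 0.05. The muscle-enriched genes (purple) all lie below 0, and among the general genes (green) only *Cavin2* does.

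The totals of deposited counts were between 52526109 and 67502788 a library. These are estimates of StringTie, not tallies of reads. Values after ± are SDs over the 3 libraries of a group (n = 3). The targeted gene was at 102.4, 95.5 and 104.6 CPM (the count scaled by TMM-adjusted library size) in control and at 41.1, 37.6 and 38.6 CPM in *Phf2* KO replicates 1, 2 and 3, a log2 fold change of -1.37 for *Phf2* (adjusted p = 8.32e-09, quasi-likelihood test). These are RNA levels and do not measure the protein, which the study reported as strongly lower in the *Phf2* KO myoblasts. Of the 14 myotube markers examined, 14 were lower in *Phf2* KO cells and 11 of them passed the threshold, against 3.26% of all genes tested called lower. This list was also chosen with earlier results of these data known, and the study itself reports several of its genes as lower. The contrast is therefore a description and not independent support. The cultures thus had a myotube profile in both groups but at a lower level after *Phf2* KO. Their summed level ran from 9860 to 11605 CPM in control and from 7662 to 8246 CPM in *Phf2* KO libraries, and no marker of the list was at 0. This shift moved together with the muscle-enriched caveola genes, and its part in their change was not tested. In a bulk library, fewer differentiated cells and less RNA per cell cannot be told apart. At a later day of differentiation than that of these libraries, the study reported no effect of *Phf2* KO on myotube area or fusion index. Markers of dividing or undifferentiated myoblasts (7 genes) overlapped between the groups in their summed level, which ran from 232.2 to 253.0 CPM in control and from 231.8 to 252.2 CPM in *Phf2* KO libraries.

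The stretches of 250 bases upstream of the annotated start sites are given for the 4 genes that moved most and for *Cav2*, the neighbour of *Cav1*, so that the letters at the starts of genes that fell and of a gene that rose can be read side by side. They were read from the promoter table of RefSeq (GRCm38.p6), which held 8 of the 9 genes. *Cavin3* had no entry. For *Cav1* the table lists a second start site further downstream, and the stretch shown is that of the first. All 5 lie on the plus strand, are written 5′ to 3′, and end at the base before a start site that is also the start of the gene in GENCODE M21. Capitals mark each E-box, CANNTG, the core sequence bound by MyoD-type factors. *Cav3* (chr6:112459255-112459504), *Cavin4* (chr4:48663264-48663513) and *Cavin2* (chr1:51288876-51289125) fell, *Cav1* (chr6:17306085-17306334) rose, and *Cav2* (chr6:17280935-17281184) did not pass the threshold.
Cav3: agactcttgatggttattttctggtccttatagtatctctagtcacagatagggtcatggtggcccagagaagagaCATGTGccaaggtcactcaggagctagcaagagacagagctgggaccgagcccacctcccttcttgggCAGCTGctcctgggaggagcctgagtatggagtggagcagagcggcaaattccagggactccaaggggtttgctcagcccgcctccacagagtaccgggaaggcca
Cavin4: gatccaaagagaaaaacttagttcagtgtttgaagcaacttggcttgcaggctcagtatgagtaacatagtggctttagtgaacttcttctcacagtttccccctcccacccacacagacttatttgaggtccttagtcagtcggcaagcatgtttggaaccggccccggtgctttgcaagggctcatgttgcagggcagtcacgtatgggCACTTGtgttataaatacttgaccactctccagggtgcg
Cavin2: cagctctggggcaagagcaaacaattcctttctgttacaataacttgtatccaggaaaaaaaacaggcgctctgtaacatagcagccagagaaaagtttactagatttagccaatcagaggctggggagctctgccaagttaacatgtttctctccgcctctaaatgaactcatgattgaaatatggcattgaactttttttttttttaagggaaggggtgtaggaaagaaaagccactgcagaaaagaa
Cav1: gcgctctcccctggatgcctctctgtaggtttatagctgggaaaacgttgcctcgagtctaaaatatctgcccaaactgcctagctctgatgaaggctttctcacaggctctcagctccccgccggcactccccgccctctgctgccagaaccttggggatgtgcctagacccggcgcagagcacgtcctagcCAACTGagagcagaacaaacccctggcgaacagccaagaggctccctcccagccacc
Cav2: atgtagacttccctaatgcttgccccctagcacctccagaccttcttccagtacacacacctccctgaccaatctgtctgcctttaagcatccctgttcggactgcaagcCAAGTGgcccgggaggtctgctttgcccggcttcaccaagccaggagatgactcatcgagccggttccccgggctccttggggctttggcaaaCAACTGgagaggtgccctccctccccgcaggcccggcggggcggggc

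The E-box letters CANNTG, which read the same on both strands, are common and occurred in 66.2% of the 32851 RefSeq stretches of this length. The *Cav3* stretch held 2 of them, and 1 of these was CAGCTG, from 106 to 101 bases before the start, a form found in 13.0% of all stretches. Among the stretches not shown, CAGCTG also occurred for *Ehd2* (from 204 to 199 bases before the start) and for *Pacsin3*, and neither gene passed the threshold. *Cavin4* held 1 E-box, CACTTG, from 39 to 34 bases before the start, and the letters TATAAA (plus strand only) from 30 to 25 bases before it. TATAAA was present in 7.59% of all stretches. *Cavin2* held no E-box and was the poorest of the 5 in G and C (40.4%, against 62.0% for *Cav2*, the richest). The *Cav1* stretch shown held 1 (CAACTG), that of its second start site held 1 of other letters (CAGGTG), and *Cav2* held 2 (CAAGTG and CAACTG). None of the 5 stretches held GGAATG on either strand (the TEAD core, in 12.6% of all stretches), the MEF2 motif (2.92%) or a CArG box (1.47%). These matches describe letters in a window and do not show binding.

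*Cav3* encodes the muscle caveolin. The gene (ENSMUSG00000062694) lies on the plus strand of chromosome 6 from 112459505 to 112472872 (GRCm38, the assembly of mm10) and has 1 annotated transcript. Its level was 11.1, 14.0 and 10.5 CPM in control replicates 1, 2 and 3, and 5.54, 3.96 and 4.08 CPM in *Phf2* KO replicates 1, 2 and 3. The highest *Phf2* KO library was therefore well below the lowest control library. Averaged over each group, *Cav3* stood at 11.9 ± 1.87 CPM in control and at 4.53 ± 0.882 CPM after *Phf2* KO. This was a log2 fold change of -1.39 (standard error 0.162, 95% interval from -1.74 to -1.04, adjusted p = 1.81e-04). It was the least abundant of the 9 genes, with 208 to 815 deposited counts a library. With the counts divided by 4, about what a read pair of 150 bp adds to them, the adjusted p of *Cav3* was 4.42e-05. It passed the threshold in every fit, with adjusted p up to 0.0222 over 13 alternatives and up to 0.00464 without 1 library. It was the only member whose change was at least 1.5-fold.

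*Cavin4* encodes the muscle cavin, a partner of *Cav3* at the sarcolemma and the T-tubule. The gene (ENSMUSG00000028348, plus strand of chromosome 4 from 48663514 to 48673502) stood at 137.3, 144.1 and 127.8 CPM in control replicates 1, 2 and 3. It stood at 106.3, 99.6 and 103.9 CPM in *Phf2* KO replicates 1, 2 and 3, below every control library. The log2 fold change of *Cavin4* was -0.40 (standard error 0.050, adjusted p = 3.18e-04, quasi-likelihood test). It passed the threshold in all alternatives and without each library in turn. The fall was smaller than that of *Cav3*: the 95% interval of *Cavin4* ran from -0.51 to -0.29, which does not reach that of *Cav3*.

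*Pacsin3* encodes the F-BAR protein that bends membrane at the neck of muscle caveolae. The gene (ENSMUSG00000027257, plus strand of chromosome 2 from 91255954 to 91264679) has 15 annotated transcripts. Its level was 71.0, 71.5 and 62.5 CPM in control and 62.9, 55.9 and 52.2 CPM in *Phf2* KO replicates 1, 2 and 3. *Phf2* KO replicate 1 lay just above control replicate 3, so the groups overlapped. Within each replicate number, the *Phf2* KO library was below the control library. Its log2 fold change was -0.26 (standard error 0.073, 95% interval from -0.42 to -0.10), and *Pacsin3* missed the threshold with an adjusted p of 0.0539 in the quasi-likelihood test. With the replicate number as a block, which pairs libraries of the same number, *Pacsin3* passed it (adjusted p = 0.00998), and 6 of the 9 genes did. It also passed without control replicate 3 (adjusted p = 0.0185) or without *Phf2* KO replicate 1 (0.0129). Over all 13 alternatives *Pacsin3* passed in 7, with adjusted p from 0.00998 to 0.426.

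**Figure D2:**
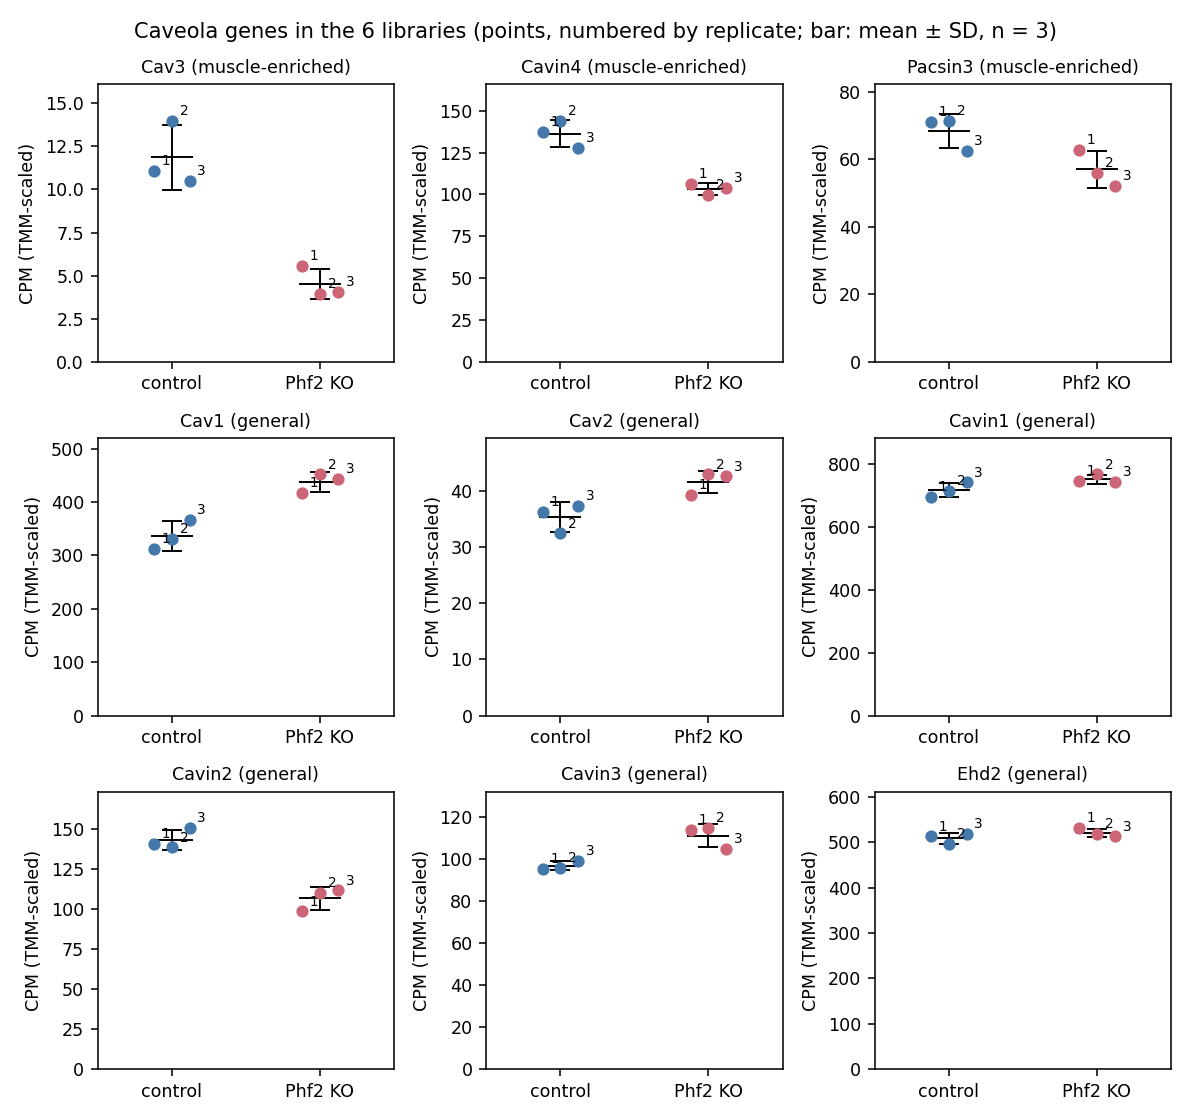
Level of each of the 9 genes in the 6 libraries (y axis, CPM after TMM scaling, from 0). Points are libraries labelled with their replicate number, and the bar is the mean with its SD. Every *Phf2* KO point lies below every control point for *Cav3*, *Cavin4* and *Cavin2*, and above for *Cav1*, *Cav2*, *Cavin1* and *Cavin3*, while *Pacsin3* and *Ehd2* overlap.

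*Cav1* encodes the main caveolin of non-muscle cells. The gene (ENSMUSG00000007655, plus strand of chromosome 6 from 17306335 to 17341452) was at 312.7, 330.4 and 366.5 CPM in control replicates 1, 2 and 3. It was at 417.1, 451.8 and 443.3 CPM in *Phf2* KO replicates 1, 2 and 3, all above the highest control library. The group means were 336.5 ± 27.5 and 437.4 ± 18.1 CPM. For *Cav1* the log2 fold change was 0.38 (standard error 0.056), its 95% interval was from 0.26 to 0.50 and the adjusted p was 0.00143 (quasi-likelihood test). *Cav1* passed the threshold without each library in turn (adjusted p up to 0.0193) and in 12 of the 13 alternatives. The exception was limma on log2(TPM + 1), with an adjusted p of 0.0518.

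*Cav2* encodes the caveolin that forms hetero-oligomers with *Cav1* and needs it to reach the cell surface. It lies 17219 bases upstream of *Cav1* on the same strand (ENSMUSG00000000058, chromosome 6 from 17281185 to 17289115). Its level was 36.4, 32.5 and 37.4 CPM in control and 39.3, 43.0 and 42.7 CPM in *Phf2* KO replicates 1, 2 and 3. All *Phf2* KO libraries were above all control libraries, but the gap between the groups was small. Its log2 fold change of 0.23 (standard error 0.069, 95% interval from 0.09 to 0.38) did not pass the threshold for *Cav2* (adjusted p = 0.0616, quasi-likelihood test). It passed in 4 of 13 alternatives, DESeq2 among them (adjusted p = 0.034), and in none of the 6 fits without 1 library (adjusted p from 0.0548 to 0.259).

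*Cavin1* encodes the cavin that every caveola needs. The gene (ENSMUSG00000004044, minus strand of chromosome 11 from 100956733 to 100970887) was at 694.9, 714.4 and 740.1 CPM in control and 744.1, 765.7 and 740.5 CPM in *Phf2* KO replicates 1, 2 and 3. The groups touched without overlapping in CPM, and they overlapped in TPM. The log2 fold change of *Cavin1* was 0.07 with a 95% interval from -0.02 to 0.15 (adjusted p = 0.384, quasi-likelihood test), so a rise above 0.15 on the log2 scale lay outside the interval. *Ehd2* encodes an ATPase that forms rings at the neck of caveolae and holds them at the surface. It was at 512.6, 495.6 and 519.0 CPM in control and 531.1, 518.5 and 512.9 CPM in *Phf2* KO replicates 1, 2 and 3, with overlapping groups (ENSMUSG00000074364, minus strand of chromosome 7 from 15946958 to 15967567). The log2 fold change of *Ehd2* was 0.03, with a 95% interval from -0.05 to 0.12 (adjusted p = 0.721). Neither gene passed the threshold in any of the 13 alternatives or without any library.

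*Cavin2* encodes a cavin that binds phosphatidylserine and shapes caveolar membrane. The gene (ENSMUSG00000045954, plus strand of chromosome 1 from 51289126 to 51302960) was at 140.6, 138.5 and 150.5 CPM in control replicates 1, 2 and 3. It was at 98.6, 110.1 and 111.7 CPM in *Phf2* KO replicates 1, 2 and 3, and again the groups were apart. The log2 fold change of *Cavin2* was -0.42 (standard error 0.054, 95% interval from -0.54 to -0.31, adjusted p = 3.62e-04), close to that of the muscle gene *Cavin4*. It passed without each library in turn, and missed the threshold when limma was run on TPM values (adjusted p = 0.0617 with a pseudocount of 1 and 0.0568 with 0.1).

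*Cavin3* encodes a cavin that binds protein kinase C delta. The gene (ENSMUSG00000037060, minus strand of chromosome 7 from 105480083 to 105482300) was at 95.2, 95.5 and 99.1 CPM in control and 113.9, 114.6 and 104.7 CPM in *Phf2* KO replicates 1, 2 and 3. All *Phf2* KO libraries were above all control libraries. *Cavin3* was higher by 0.20 on the log2 scale (standard error 0.048, 95% interval from 0.10 to 0.30, adjusted p = 0.022, quasi-likelihood test). *Cavin3* missed the threshold without control replicate 1 (adjusted p = 0.0993), control replicate 2 (0.118), *Phf2* KO replicate 1 (0.0787) or *Phf2* KO replicate 2 (0.114), so that *Cav1* was then the only member past it among those that rose. It also missed it with exactTest without a filter (0.0834) and with limma on TPM at a pseudocount of 1 (0.0892) or 0.1 (0.0886).

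Of the 9 members, 5 overlap a gene on the other strand, and the strand setting of the counting is not given in the sources used here. The antisense gene across *Cav1* and *Cav2* was at 0 counts in every library. The antisense gene across *Cavin2* had at most 8 counts and the gene across *Cavin3* (374 shared exonic bases) at most 7. This was at most 0.13% of the count of the member in the same library. The gene across *Pacsin3* (42 shared exonic bases) was not found by its identifier in the count matrix, so its count is unknown.

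Levels were compared between genes in TPM, which divides by transcript length, over the rows of reference genes. In control cells the order from high to low was *Cavin1* (443.7 ± 17.1 TPM), *Cav1* (276.1 ± 21.1), *Ehd2* (214.6 ± 6.37), *Cavin4* (143.2 ± 7.71), *Cavin3* (125.4 ± 3.58), *Cavin2* (101.2 ± 5.21), *Pacsin3* (73.3 ± 10.7), *Cav2* (28.1 ± 2.19) and *Cav3* (22.1 ± 3.36), each as mean TPM ± SD. Only the neighbours *Cav2* and *Cav3* overlapped over their 3 control libraries. The general caveolin was thus 10.5 to 15.2 times as abundant as the muscle caveolin in control myotube cultures at this time, whereas *Cavin1* was only 2.92 to 3.42 times as abundant as *Cavin4*. In *Phf2* KO cells *Cavin3* (145.4 ± 4.51 TPM) stood above *Cavin4* (109.5 ± 3.99), and *Cavin2* (76.2 ± 6.50) overlapped with *Pacsin3* (58.0 ± 13.9). *Cav3* (8.48 ± 1.53 TPM) was then clearly below *Cav2* (33.5 ± 2.19). The other ranks were the same in both groups.

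**Figure D3:**
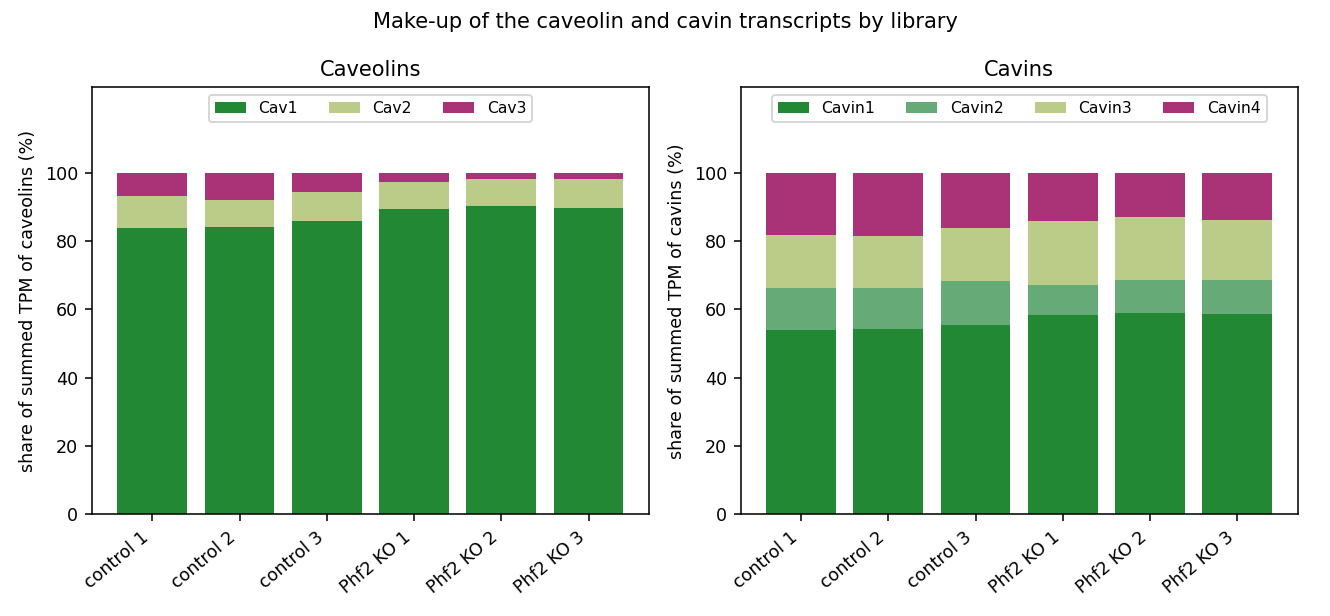
Share of each gene in the summed TPM of the 3 caveolins (left) and of the 4 cavins (right), in percent, with 1 bar for each library. *Cav3* takes 5.66% to 8.02% of the caveolin TPM in control and 1.75% to 2.67% in *Phf2* KO libraries, and *Cavin4* takes 16.2% to 18.6% and 13.0% to 14.1% of the cavin TPM.

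The muscle forms took a smaller share of both families in *Phf2* KO cells, given here as values without a test because the genes were chosen with earlier results known. The share of *Cav3* in the caveolin TPM was 6.72%, 8.02% and 5.66% in control and 2.67%, 1.75% and 1.86% in *Phf2* KO replicates 1, 2 and 3, and that of *Cav1* went from 84.6% ± 1.06 to 89.7% ± 0.447. Neither share overlapped between the groups, while the share of *Cav2* did (8.62% ± 0.753 and 8.19% ± 0.143). The summed caveolin TPM was higher in *Phf2* KO cells (409.0 ± 22.1 against 326.3 ± 20.9), which is mostly *Cav1*. The summed cavin TPM was 813.5 ± 19.5 in control and 799.8 ± 15.7 in *Phf2* KO cells, and here the groups overlapped. Within this similar total, *Cavin1* and *Cavin3* held larger shares in every *Phf2* KO library, and *Cavin2* and *Cavin4* smaller ones. *Cavin2* went from 12.4% ± 0.420 to 9.52% ± 0.644 and *Cavin3* from 15.4% ± 0.180 to 18.2% ± 0.710.

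Ratios of a muscle gene to its general relative were then taken within each library, so that scaling between libraries has no part in them. The log2 ratio of *Cav3* to *Cav1* was -3.64, -3.39 and -3.92 in control and -5.06, -5.69 and -5.59 in *Phf2* KO replicates 1, 2 and 3. There were thus 33.5 to 51.5 *Cav1* TPM for each *Cav3* TPM in *Phf2* KO libraries. The log2 ratio of *Cavin4* to *Cavin1* was -1.57, -1.55 and -1.77 in control and -2.04, -2.18 and -2.07 in *Phf2* KO replicates 1, 2 and 3, again without overlap. The log2 ratio of *Pacsin3* to its general relative *Pacsin2* overlapped between the groups, with a mean of -0.58 ± 0.259 in control and -0.84 ± 0.335 in *Phf2* KO cells. Within each replicate number this ratio was lower in the *Phf2* KO library. For *Cavin2* to *Cavin1* the mean log2 ratio differed by -0.49 between *Phf2* KO and control, close to the -0.47 for *Cavin4* to *Cavin1*. *Cav1* gained on *Cavin1*, from 1.61 ± 0.060 *Cavin1* TPM for each *Cav1* TPM to 1.28 ± 0.046.

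**Figure D4:**
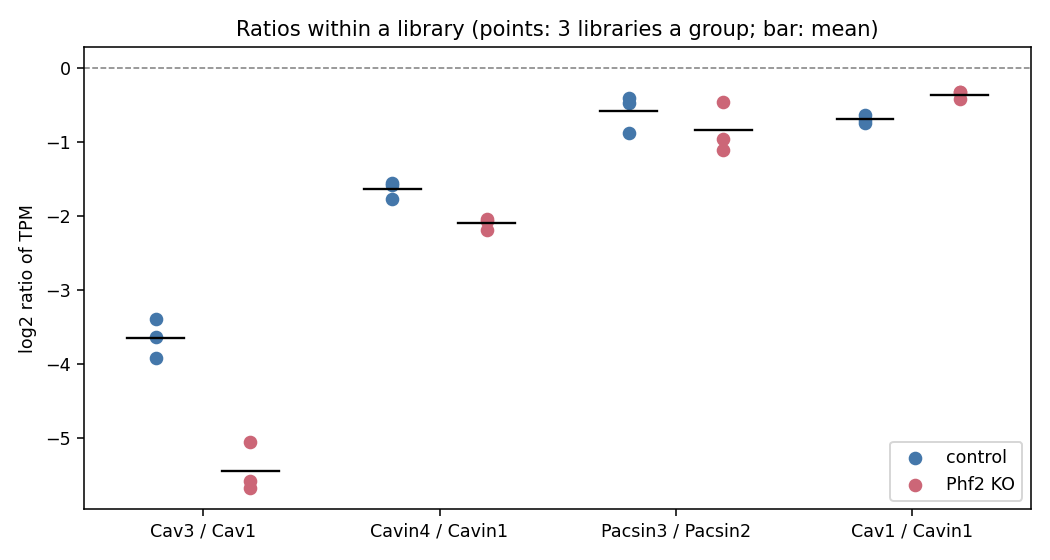
Log2 ratio of TPM within a library for 4 pairs of genes, with control libraries in blue, *Phf2* KO libraries in red and the mean of 3 as a bar. The groups are apart for *Cav3* to *Cav1*, *Cavin4* to *Cavin1* and *Cav1* to *Cavin1*, and overlap for *Pacsin3* to *Pacsin2*.

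Partners of caveolae were examined through 3 gene lists, which were also chosen with earlier results of these data known. Of the 14 genes of the caveolar neck, the coat and lipid rafts (EHD proteins, pacsins, dynamins, flotillins, filamin A and kinases), all were tested. Past the threshold 1 was higher and 1 was lower, where 3.22% and 3.26% of all genes tested were called higher and lower, and the log2 fold changes of the list had a median of -0.04. *Ehd4*, a relative of *Ehd2* in membrane traffic, was at 204.5 ± 7.04 CPM in control and fell to 156.8 ± 10.3 CPM, with a log2 fold change of -0.38 (adjusted p = 6.8e-04, quasi-likelihood test). *Flna*, the actin crosslinker filamin A that binds caveolin-1, was at 2426 ± 23.6 CPM in control and rose to 2777 ± 28.6 CPM, with a log2 fold change of 0.19 (adjusted p = 0.00145). The other 12, *Pacsin2*, the flotillins and the dynamins among them, did not pass.

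Of 12 receptors, enzymes and transporters that are known to reside in caveolae, past the threshold 1 was higher and 1 was lower (3.22% and 3.26% of all genes tested), and the list had a median of -0.02 in log2 fold change. *Cd36*, the fatty acid transporter, fell to 1.92 ± 0.373 CPM after *Phf2* KO, against 5.22 ± 0.740 CPM in control. On the log2 scale *Cd36* changed by -1.44 (adjusted p = 7.73e-04), a change of the size seen for *Cav3*. *Lrp6*, a Wnt co-receptor, was higher by 0.19 on the log2 scale (adjusted p = 0.0194). With the replicate block 3 genes of the list passed. The number past the threshold was 4 without control replicate 1 and 1 without control replicate 2, control replicate 3, *Phf2* KO replicate 1 or *Phf2* KO replicate 3.

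Of 18 genes of membrane repair and T-tubules, in which *Cav3* takes part, past the threshold 2 were higher and 5 were lower (3.22% and 3.26% of all genes tested), and the list had a median of -0.04 in log2 fold change. The 5 that fell have known roles at the membranes of skeletal muscle. *Trim72*, whose product MG53 seals membrane wounds, was at 77.5 ± 7.18 CPM in control and fell to 53.3 ± 5.21 CPM, with a log2 fold change of -0.54 (adjusted p = 0.00274, quasi-likelihood test). The junctophilin genes *Jph1* and *Jph2*, which tie the T-tubule to the sarcoplasmic reticulum, had log2 fold changes of -0.50 and -0.33 (adjusted p = 2.63e-04 and 6.86e-04). *Dysf*, which encodes the repair protein dysferlin, had -0.42 (adjusted p = 0.00132), and *Bin1*, which encodes the amphiphysin that tubulates membrane, had -0.24 (adjusted p = 0.00316). The 2 that rose, named after their values were seen, were the annexin gene *Anxa5* (log2 fold change 0.20, adjusted p = 0.0185) and *S100a10*, whose product binds annexin A2 (0.19, adjusted p = 0.0258). With exactTest 5 genes of the list passed. The other 11 genes, which include muscle-enriched and ubiquitous ones, did not pass, with log2 fold changes from -0.40 to 0.29.

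**Figure D5:**
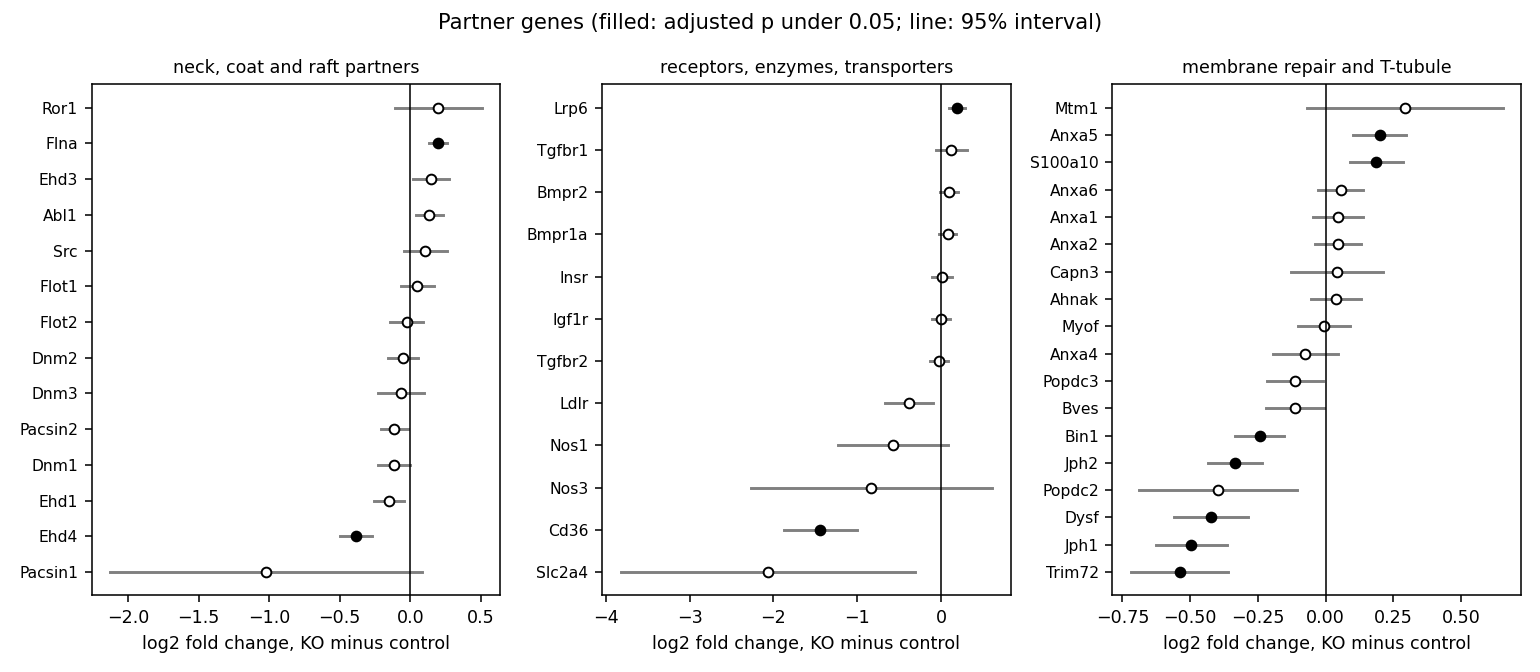
Log2 fold change (*Phf2* KO minus control, x axis, a different range in each panel) of the genes of the 3 partner lists, with the 95% interval as a line. Filled points have an adjusted p under 0.05. In the list of membrane repair and T-tubules *Trim72*, *Jph1*, *Dysf*, *Jph2* and *Bin1* are lower and *Anxa5* and *S100a10* higher.

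Other cell types rich in caveolae were checked by their markers. The endothelial markers *Pecam1*, *Cdh5* and *Kdr* had 49, 23 and 14 counts in all 6 libraries together and were not tested. *Tek*, at 0.357 ± 0.233 CPM in control and 0.155 ± 0.186 CPM after *Phf2* KO, did not pass (adjusted p = 0.567, quasi-likelihood test). Of the adipocyte markers, *Plin1* and *Lep* had 0 counts and *Adipoq* had 8 in all 6 libraries. *Cebpa*, which is on that list but is also expressed elsewhere, rose from 32.9 ± 3.88 to 51.8 ± 3.36 CPM (adjusted p = 4.64e-04), while *Pparg* was at 5.32 ± 0.643 and 5.13 ± 1.11 CPM. *Fabp4* was at 0.435 ± 0.358 CPM in control and 0.255 ± 0.227 CPM after *Phf2* KO (adjusted p = 0.677, quasi-likelihood test). The summed level of this list ran from 35.4 to 43.5 CPM in control and from 53.2 to 59.3 CPM in *Phf2* KO libraries, most of it *Cebpa*. Of the 5 fibroblast markers, 4 were tested and *Thy1* had 0 counts. *Col1a1* rose by 0.20 on the log2 scale (adjusted p = 0.0118), while *Dcn* (0.21, adjusted p = 0.204), *Pdgfra* (0.14, adjusted p = 0.408) and *Lum* (-0.21, adjusted p = 0.54) did not pass. The summed level of the 4, most of it *Col1a1* (4487 ± 208.2 CPM in control and 5167 ± 263.0 CPM after *Phf2* KO), ran from 4804 to 5266 CPM in control and from 5512 to 6065 CPM in *Phf2* KO libraries. The fibroblast sum, and the adipocyte sum through *Cebpa*, moved in the direction of *Cav1*, as did *Col1a1*. All libraries come from C2C12 cells, so these sums are not a measure of fibroblast or adipocyte content. *Pparg*, *Fabp4* and *Lum* had lower means after *Phf2* KO without passing the threshold. The part of these markers in the change of *Cav1* was not tested.

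Among the genes most like *Cav1* over the 6 libraries, of the 10914 genes averaging 5 CPM or more, were *Nepro* (Pearson's r = 0.999) and *Rac1* (r = 0.997). Those most like *Cav3* were *Gatm* (r = 0.997), *Manf* (r = 0.997) and *Iars* (r = 0.995). The 6 libraries are 2 groups of 3, so any gene that differs between the groups with little spread gets a high r. The sizes of the changes differed. *Nepro* had a log2 fold change of 0.05 and *Rac1* of 0.11, both smaller than that of *Cav1*, and *Gatm*, *Manf* and *Iars* had -0.24, -0.13 and -0.33, each smaller in size than the change of *Cav3*.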

How the data were processed

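Poly(A) RNA of 6 libraries, 3 control and 3 *Phf2* KO, was sequenced by the authors as paired-end reads of 150 bp, aligned to mm10 with HISAT2 and counted with StringTie. Versions and the strand setting are not given in the sources used here. The deposited matrix holds estimated counts, whole numbers without scaling. A deposited table for each library gives TPM, treated as a signal scaled within that library, and coverage, used only to find the unit of the counts (about 75 covered bases each). Because transcripts are listed under reference genes and again under assembled loci, only the rows of reference genes were used (sums from 976993 to 984559 TPM). All 9 identifiers and spans matched GENCODE M21.

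Low genes were removed by filterByExpr at a minimum count of 10. After TMM scaling the counts went into the robust quasi-likelihood test of edgeR 4.0.16 in R 4.3.3, with Benjamini-Hochberg adjustment over 17310 genes and a threshold of 0.05. The study used exactTest, which was an alternative here. The procedure was tested on simulated data. Fold changes use a prior count of 0.125. As alternatives served DESeq2 1.42.0, voom of limma 3.58.1, exactTest (filtered or not), other scalings and filters, counts divided by 4, limma on log2(TPM + 1) and log2(TPM + 0.1), stricter thresholds, a replicate block and leaving out each library. The labels number the replicates 1 to 3 in both groups. Centred on their groups, same-numbered libraries correlated at 0.235, 0.258 and 0.168 across 10923 genes, which are not independent replicates, and no other pair was above 0. Centring itself pulls the other pairs below 0 when the same-numbered pairs are above it. The numbers were therefore treated as a possible pairing, in the replicate block and in the descriptions of *Pacsin3* within each replicate number. The main fit, its intervals and the overlaps of groups do not use it. The members and lists were chosen with earlier results of these data known. Named are all members, *Phf2*, up to 5 called genes with the largest change of each partner list, the 3 genes most like *Cav1* and *Cav3*, and markers where a value is given, with *Anxa5*, *S100a10* and the relative *Pacsin2* added after their values were seen. One gene that this rule names is not reported here.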

Additional observations from a re-analysis of the deposited data

How the results depend on the processing

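The 5 members past the threshold became 2 with limma run on TPM at a pseudocount of 1, 3 at one of 0.1, and 1 with a fold change of at least 1.5. They became 7 with DESeq2, without a filter, with the CPM filter and with counts divided by 4, 6 with exactTest and with library size alone, and 4 with exactTest without a filter and at an adjusted p under 0.01. The 2 that rose became 1 with exactTest without a filter, 0 and 1 in those limma fits, 1 at an adjusted p under 0.01 and 0 at 1.5-fold, and the 3 that fell became 1 at 1.5-fold. Leaving out 1 library gave 4 to 6 members (1 to 2 higher, 3 to 4 lower). For the 2 neck, coat and raft partners, exactTest without a filter gave 1, both limma fits 1 and the 1.5-fold limit 0. For the 2 receptors, enzymes and transporters, both limma fits, an adjusted p under 0.01 and the 1.5-fold limit gave 1, and leaving out 1 library gave 1 to 4. The 7 membrane repair and T-tubule partners became 2 in both limma fits, 0 at 1.5-fold and 5 with exactTest, and 5 to 7 without 1 library. Of the 17310 genes tested, the main fit called 1122, limma on TPM 158 (pseudocount 1) and 178 (0.1), and DESeq2 1527. ExactTest called 1129, library size alone 1106 and the replicate block 1316. Without a filter, of 28228 genes, the quasi-likelihood test called 1171 and exactTest 931. The CPM filter gave 1264 of 13441, and counts divided by 4 gave 1286 of 14163. Fits without 1 library called 468 to 1039 genes. The cause of the lower numbers in the limma fits was not tested. With the replicate block, 6 members passed, since *Pacsin3* was added, and no other member's call changed, while the receptors, enzymes and transporters became 3 and the other partner lists had 2 and 7. The call for *Phf2* was kept in every fit. None of the 9 members nor *Phf2* changed direction in any fit, though all fits reuse the same libraries. Direction was not followed for other genes, shares or ratios. With 3 wells of 1 pool a group, small changes such as those of *Cavin1* and *Ehd2* are limited by the spread between wells.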
